A study of Homo sapiens with 4 samples.

Results

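The 33 genes described here encode proteins of epithelial cell junctions, the keratins of simple epithelia, and regulators of the epithelial state. They were listed by name, with earlier results of these data known, and are 33 of the 18640 genes that the arrays measured. The rule that lists them uses no measured value. All 33 were found through 486 probesets (small groups of probes within an exon), between 3 and 45 for each gene, and PATJ was found under its older symbol INADL. RNA came from embryoid bodies, floating aggregates in which human embryonic stem cells start to differentiate. The starting cells were BG01V, an established human embryonic line whose karyotype is variant. The 2 control arrays, DMSO replicates 1 and 2, measured embryoid bodies that received the solvent DMSO. The 2 treated arrays, TBBD replicates 1 and 2, measured embryoid bodies given 10 µM TBBD for 48 h, a window that generally fell between day 2 and day 4 of their formation. By the series title, TBBD blocks H3R17 methylation, a mark on an arginine of a histone tail, and the series asked how expression responds to it. All 4 arrays share the line, the medium and the gelatin-coated dishes onto which the aggregates were moved.

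Epithelial cells are held together by 3 kinds of junction. Adherens junctions are built on the cadherin CDH1, tight junctions seal the space between cells through claudins and occludin, and desmosomes tie the keratin network of neighbouring cells together. Human embryonic stem cells are themselves epithelial and carry CDH1, EPCAM and CLDN6. When cells leave an epithelium to become mesoderm or mesenchyme, in the epithelial-mesenchymal transition, the factors of the SNAI and ZEB families repress junction genes by binding short E-box sequences in their promoters, and the splicing regulators ESRP1 and ESRP2 are lost.

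Promoter sequences are shown for 3 members on which the results below turn: CLDN10 and OCLN, which were lower on the replicate 2 arrays, and DSP, a desmosome gene that was not. Each run is the 250 bases before a start site, written 5′ to 3′, from RefSeq on GRCh38.p14. Capitals mark the 6-base E-box form CACCTG and its reverse complement CAGGTG. Other E-box forms were not searched for, and below the E-box means this form only.
CLDN10, upstream start, chr13:95433505-95433754, plus strand: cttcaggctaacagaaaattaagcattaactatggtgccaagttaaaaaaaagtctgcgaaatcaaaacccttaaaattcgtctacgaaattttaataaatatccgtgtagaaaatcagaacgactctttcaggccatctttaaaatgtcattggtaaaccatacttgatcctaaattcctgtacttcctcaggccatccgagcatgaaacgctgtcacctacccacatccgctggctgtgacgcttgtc
CLDN10, downstream start, chr13:95552470-95552719, plus strand: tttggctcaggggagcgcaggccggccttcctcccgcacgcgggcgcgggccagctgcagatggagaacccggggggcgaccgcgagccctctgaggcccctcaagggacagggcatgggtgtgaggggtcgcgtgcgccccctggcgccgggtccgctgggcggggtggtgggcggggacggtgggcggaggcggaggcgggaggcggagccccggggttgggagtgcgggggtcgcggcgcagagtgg
OCLN, upstream start, chr5:69492297-69492546, plus strand: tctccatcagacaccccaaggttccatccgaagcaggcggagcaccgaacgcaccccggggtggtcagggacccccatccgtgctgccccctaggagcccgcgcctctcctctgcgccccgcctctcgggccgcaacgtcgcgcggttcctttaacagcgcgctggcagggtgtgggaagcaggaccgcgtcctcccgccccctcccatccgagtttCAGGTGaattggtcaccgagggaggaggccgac
OCLN, downstream start, chr5:69492540-69492789, plus strand: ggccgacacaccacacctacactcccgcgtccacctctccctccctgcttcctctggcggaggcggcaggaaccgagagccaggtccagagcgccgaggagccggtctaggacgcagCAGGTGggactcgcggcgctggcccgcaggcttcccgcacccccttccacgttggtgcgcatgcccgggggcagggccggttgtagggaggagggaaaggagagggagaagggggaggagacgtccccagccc
DSP, chr6:7541421-7541670, plus strand: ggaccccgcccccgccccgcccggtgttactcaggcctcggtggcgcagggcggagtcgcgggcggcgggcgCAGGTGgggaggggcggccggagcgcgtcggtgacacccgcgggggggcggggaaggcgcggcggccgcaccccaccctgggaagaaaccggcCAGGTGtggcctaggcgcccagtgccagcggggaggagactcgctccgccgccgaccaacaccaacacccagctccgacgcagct

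The CLDN10 starts lie 119 kb apart, and their windows are unlike in composition, with 39.6% G and C at the upstream start and 78.0% at the downstream start. Neither holds this form of the E-box. The OCLN windows, which overlap each other by a few bases, hold 1 E-box each, at -33 and -133 relative to their starts. The DSP window holds 2 E-boxes, at -178 and -85. RefSeq windows were found for 19 of the 33 members, and the E-box was present for 12 of them. CDH1, EPCAM and ESRP1 are among the members without a window. By window, 13 of 29 held it (44.8%), against 17.5% of all 35116 windows in the table. These shares are not matched for composition. Most member windows were richer in G and C than the median of all windows, 58.0%, and the E-box is itself rich in G and C. Whether members hold it more often than windows of like composition was not tested. Members with the E-box include DSP and DSG2 as well as OCLN, and members without it include CLDN10, CLDN6 and KRT8. A match describes the letters of the window only.

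The arrays were alike in overall brightness, with median log2 signals of the probesets from 6.39 to 6.42. The 348 olfactory receptor genes, used as a guide to the signal of genes not thought to be active in these cells, had a median of 5.40, and 95% of them lay below 5.66. By that guide 1 member, CRB3, may not be measured above background, whereas the other 32 had a mean signal above 5.66. Probes differ in brightness for reasons other than RNA amount, so levels are compared here between arrays and not between genes. The labels do not say that replicates came from separate cultures, so each p-value reflects only how far these arrays spread, which may be technical.

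**Figure D1:**
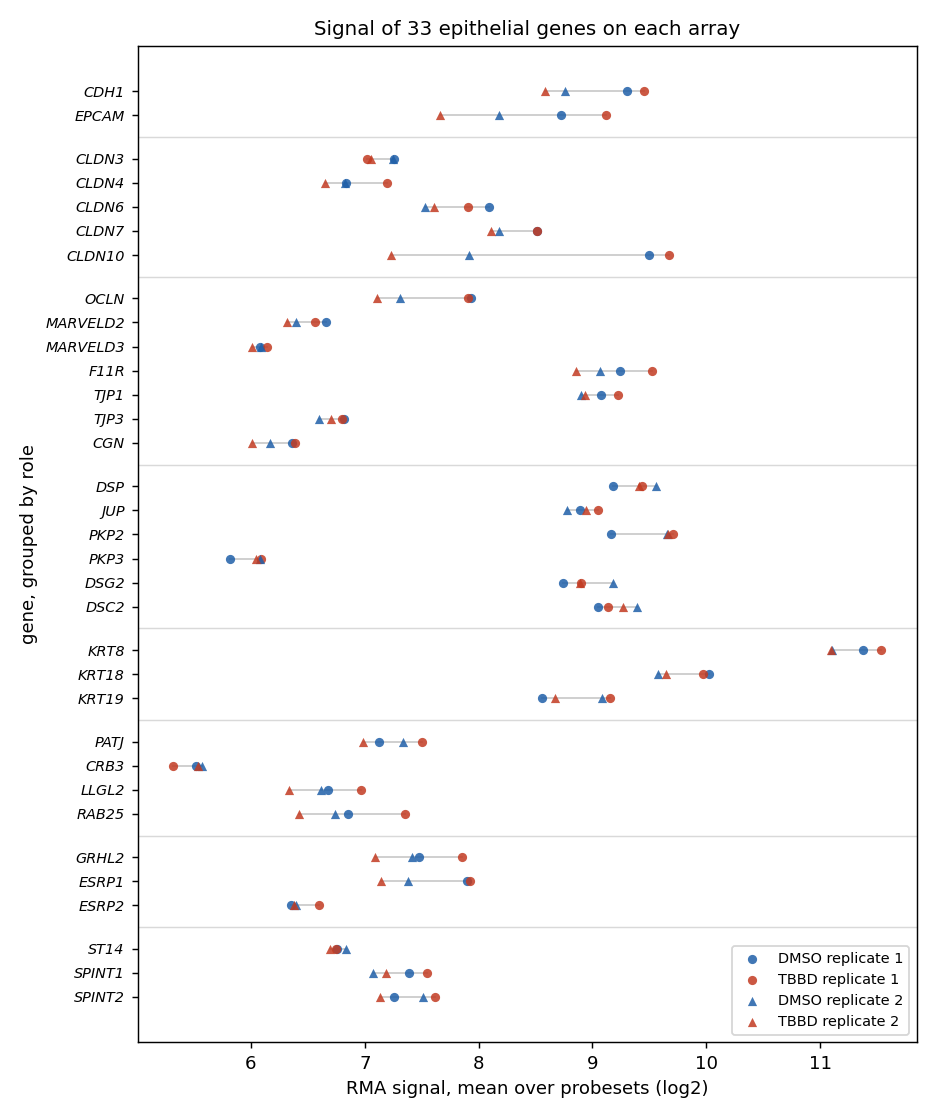
RMA signal (log2, mean over the probesets of a gene) of each of the 33 genes on each array, with genes grouped by role; circles are replicate 1, triangles are replicate 2, blue is DMSO and red is TBBD. The replicate 2 arrays lie to the left of the replicate 1 arrays for 19 genes, CLDN10 having the widest gap, and red triangles are the lowest point for 18 genes.

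The limma tests called 4 members between the replicate numbers and 0 between the treatments. These counts come from unlike models. The number test had treatment as a second term, whereas the treatment test had no number term. Differences between the numbers therefore stayed in the error of the treatment test. The median standard error of a member was 0.12 in the number test and 0.20 in the treatment test. With the replicate number as a block the treatment test also called 0 members. Of the 33 members, 24 had a lower signal on the replicate 2 arrays and 9 a higher one, with a median log2 difference (replicate 2 minus replicate 1) of -0.25, against -0.0024 over all genes. That median was -0.11 without TBBD replicate 1 or without TBBD replicate 2, and -0.36 without either DMSO array. The cell adhesion gene CDH1, the claudin gene CLDN10, the occludin gene OCLN and the splicing regulator gene ESRP1 fell in replicate 2 by limma's moderated test with the treatment as a second term (Benjamini-Hochberg adjusted p under 0.05 over all genes), and 0 members rose. In that test 1.21% of all genes were called lower and 2.3% higher. Both replicate 2 arrays lay below both replicate 1 arrays for 19 members and above them for 2, where the shares over all genes were 25.9% and 25.1%. Those 2 were DSC2 and CRB3, of which CRB3 may not be measured above background. At an unadjusted p under 0.05 there were 12 members, all lower, beside 9.10% of all genes called lower at that level. The labels do not say what a number stands for, and what set the numbers apart was not tested.

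The calls of CDH1, OCLN and ESRP1 were lost when some single arrays were left out. Leaving out an array, with the replicate number as the only term, kept CLDN10 as the only call without TBBD replicate 1 and without TBBD replicate 2, CDH1 and CLDN10 without DMSO replicate 1, and those 4 together with EPCAM without DMSO replicate 2. CDH1 and ESRP1 also missed the threshold when the arrays were quantile normalized again (limma adjusted p = 0.0598 and 0.0501) and when the median over probesets replaced the mean (limma adjusted p = 0.123 and 0.058).

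**Figure D2:**
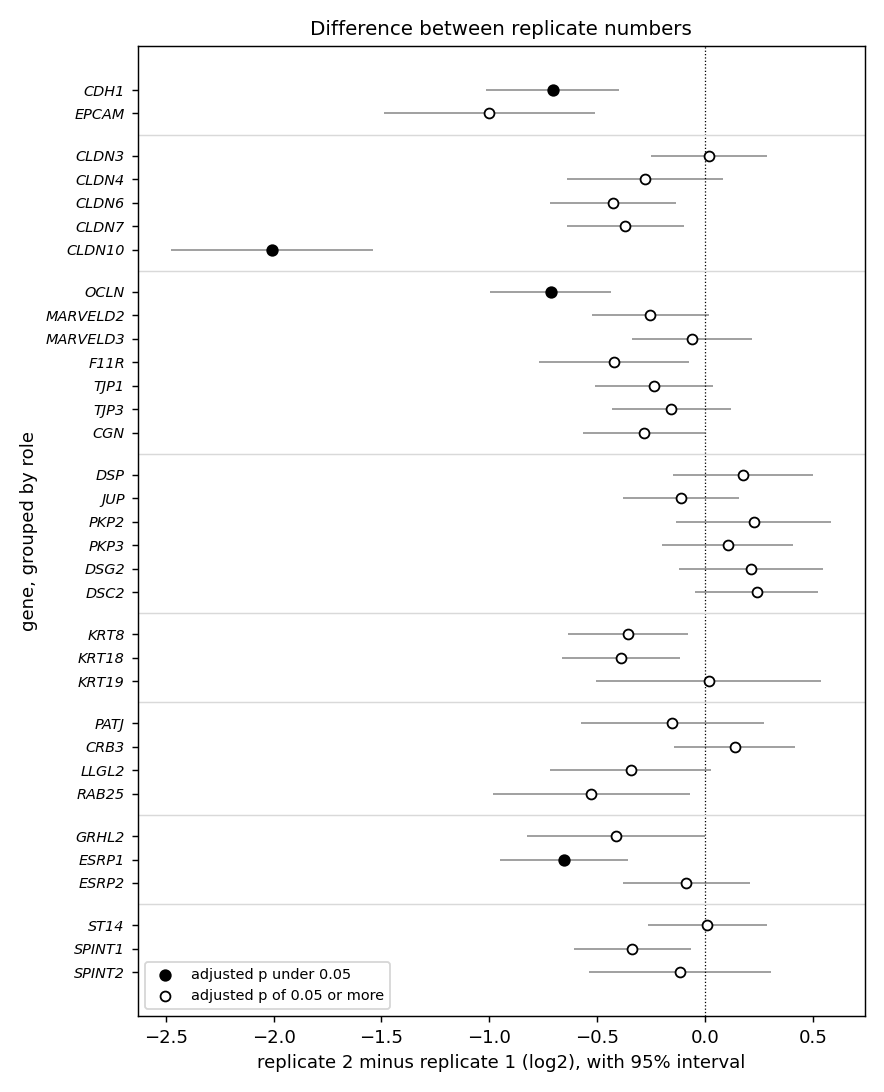
Difference between replicate 2 and replicate 1 (log2) for each of the 33 genes, grouped by role, with the 95% confidence interval of limma's moderated test; filled points have an adjusted p under 0.05. CLDN10 stands at -2.01 and 5 of the 6 desmosome genes lie to the right of 0 in this mean over probesets, with intervals that reach 0 (PKP2 turns to -0.20 with the median over probesets).

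CDH1 encodes E-cadherin, the adhesion protein of adherens junctions. Its log2 signal was 9.30 on DMSO 1, 9.45 on TBBD 1, 8.76 on DMSO 2 and 8.58 on TBBD 2. Both replicate 2 arrays were lower than both replicate 1 arrays, while DMSO and TBBD overlapped. The difference between the numbers was -0.71 ± 0.13 (SE), a 1.63-fold lower signal (limma adjusted p = 0.0377), and 19 of its 20 probesets were lower in replicate 2. EPCAM, an adhesion protein of epithelia and of embryonic stem cells, had a signal of 8.73 on DMSO 1, 9.12 on TBBD 1, 8.18 on DMSO 2 and 7.66 on TBBD 2. It showed the same order of arrays as CDH1, with a wider gap between the TBBD arrays. Its difference of -1.0 ± 0.21 (SE) just missed the threshold (limma adjusted p = 0.0518) and was -0.54 between the DMSO arrays and -1.46 between the TBBD arrays. The call was made under some other settings, for instance among genes with at least 3 probesets (limma adjusted p = 0.0232). It was not made with quantile normalization again (limma adjusted p = 0.0733) or among the brightest 1 in 2 genes (limma adjusted p = 0.0606).

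Claudins form the strands of tight junctions and set which ions pass between cells. CLDN10, a claudin of ion-selective pores, showed the largest difference of the 33 genes. Its log2 signal was 9.50 on DMSO 1, 9.67 on TBBD 1, 7.92 on DMSO 2 and 7.23 on TBBD 2. The replicate 1 arrays lay close together and both replicate 2 arrays lay far below them. The difference was -2.01 ± 0.20 (SE), or 4.02-fold lower in replicate 2 (limma adjusted p = 0.00439), and it stayed past the threshold in each setting that gave it a test. Of its 9 probesets, 8 differed by between -2.86 and -1.33 on the log2 scale. The ninth differed by -0.10, at signals of 4.77 to 5.01 on all 4 arrays, below the median of the olfactory receptor genes. Which of the start sites above each probeset belongs to was not determined here.

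None of the other 4 claudins passed the test. CLDN6, a claudin of embryonic stem cells and embryonic epithelia, had a signal of 8.09 on DMSO 1, 7.91 on TBBD 1, 7.53 on DMSO 2 and 7.61 on TBBD 2. The numbers did not overlap, and the difference was -0.43 ± 0.12 (SE; limma adjusted p = 0.126). CLDN6 rests on 3 probesets, of which 1 differed the other way. With their median in place of their mean it stood at -0.94 (limma adjusted p = 0.0129). CLDN7 differed by -0.37 ± 0.12 and CLDN4 by -0.28 ± 0.15, the latter by -0.0081 between the DMSO arrays and -0.55 between the TBBD arrays. CLDN3 stood at 0.02 ± 0.11, its interval running from -0.25 to 0.29, and turned to -0.0090 with median centring and to -0.33 with the median over its 3 probesets.

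All 7 other tight junction genes lay lower in replicate 2 in the mean over probesets, 6 of them without overlap of the numbers, and MARVELD3 turned to 0.25 with the median over probesets. OCLN, the strand protein occludin, had a log2 signal of 7.94 on DMSO 1, 7.91 on TBBD 1, 7.31 on DMSO 2 and 7.11 on TBBD 2. The replicate 1 arrays were almost equal and the replicate 2 arrays lay below them by about the same step. The difference was -0.71 ± 0.12 (SE; limma adjusted p = 0.0271), 1.64-fold, and all 8 probesets shared its sign. RefSeq lists 1 pseudogene each named for OCLN, CLDN7, TJP1, PKP2 and CRB3, and whether the probes separate these copies was not tested. MARVELD2, or tricellulin, which seals the corners where cells meet, differed by -0.25 ± 0.11, and its relative MARVELD3 by -0.06 ± 0.12. F11R, the junctional adhesion molecule JAM-A, stood at -0.42 ± 0.15, with -0.17 between the DMSO arrays and -0.67 between the TBBD arrays. TJP1, the scaffold ZO-1, had a signal of 9.08 on DMSO 1, 9.23 on TBBD 1, 8.90 on DMSO 2 and 8.93 on TBBD 2, and the numbers did not overlap. Its difference was -0.24 ± 0.12 (limma adjusted p = 0.351). The scaffolds TJP3 and CGN, or cingulin, stood at -0.16 ± 0.12 and -0.28 ± 0.12, and neither passed the test.

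None of the 6 desmosome genes passed the test. In the mean over probesets 5 had a higher value in replicate 2 and JUP a lower one, with a median of 0.20, and PKP2 turned from 0.23 to -0.20 with the median over probesets. DSP, desmoplakin, which anchors keratin filaments, had a log2 signal of 9.18 on DMSO 1, 9.44 on TBBD 1, 9.56 on DMSO 2 and 9.41 on TBBD 2. DMSO 1 was the lowest array and the other 3 were close to each other. The same held for PKP2, plakophilin 2, at 9.16, 9.70, 9.65 and 9.66 in the same order. The desmosomal cadherin genes DSG2 and DSC2 differed by 0.21 ± 0.14 (SE) and 0.24 ± 0.12, and PKP3 by 0.11 ± 0.13. For DSP, DSG2, PKP2 and PKP3 the difference was between 0.26 and 0.49 on the DMSO arrays and between -0.048 and -0.010 on the TBBD arrays. DSC2 was the member of the group whose numbers did not overlap. JUP, plakoglobin, which serves both desmosomes and adherens junctions, had a signal of 8.89 on DMSO 1, 9.05 on TBBD 1, 8.78 on DMSO 2 and 8.94 on TBBD 2.

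Keratins 8, 18 and 19 are the intermediate filament proteins of simple epithelia. KRT8 had a log2 signal of 11.38 on DMSO 1, 11.54 on TBBD 1, 11.10 on DMSO 2 and 11.10 on TBBD 2. Its partner KRT18 had 10.03, 9.97, 9.58 and 9.64 in the same order. For both genes the replicate 2 arrays lay together below the replicate 1 arrays. The differences were -0.36 ± 0.12 (SE; limma adjusted p = 0.172) and -0.39 ± 0.12 (limma adjusted p = 0.136). RefSeq names 52 pseudogenes after KRT8, 68 after KRT18 and 5 after KRT19, so these values are uncertain where probes match a copy. KRT19 behaved differently, at 8.56 on DMSO 1, 9.16 on TBBD 1, 9.08 on DMSO 2 and 8.67 on TBBD 2. Neither the numbers nor the treatments separated, and the difference between the numbers was 0.02 ± 0.22, being 0.52 between the DMSO arrays and -0.49 between the TBBD arrays, and it turned to -0.011 with median centring.

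Among polarity and trafficking genes, RAB25, an epithelial GTPase of membrane recycling, differed by -0.53 ± 0.19 (SE) and LLGL2, a basolateral polarity protein, by -0.35 ± 0.16. PATJ and CRB3, of the apical Crumbs complex, stood at -0.15 ± 0.18 and 0.14 ± 0.12. None of these 4 passed the test. GRHL2, a transcription factor that maintains epithelial junctions, differed by -0.41 ± 0.17, and all 17 of its probesets were lower. RAB25, LLGL2 and GRHL2 differed little between the DMSO arrays, at -0.12, -0.059 and -0.061, and by -0.94, -0.63 and -0.76 between the TBBD arrays.

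ESRP1, which directs epithelial splice forms, had a log2 signal of 7.90 on DMSO 1, 7.93 on TBBD 1, 7.38 on DMSO 2 and 7.14 on TBBD 2. The pattern was that of OCLN, with the replicate 1 arrays level and both replicate 2 arrays below. The difference was -0.65 ± 0.12 (SE; limma adjusted p = 0.0413), 1.57-fold, with 18 of 19 probesets lower. Its relative ESRP2 differed by -0.09 ± 0.12 and had overlapping numbers. Of the membrane protease matriptase and its inhibitors, SPINT1 differed by -0.34 ± 0.11, SPINT2 by -0.12 ± 0.18 and ST14, the protease itself, by 0.01 ± 0.12, which turned to -0.0044 with quantile normalization again and to -0.016 with median centring.

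Other genes of the same biology, listed beside the 33, gave a like picture in part. Of 19 other epithelial genes, 15 were lower in replicate 2 with a median of -0.20, and limma called 2 lower and 0 higher. The called ones were GRHL3, a relative of GRHL2, at -1.13 ± 0.12 (SE), and MAL2, an apical transport protein, at -1.10 ± 0.14. Among 21 other tight junction genes 12 were lower, the median was -0.07, and 1 was called, JAM2, higher at 0.71 ± 0.14. Among 14 other keratins the median was -0.12 and 1 was called, KRT23, lower at -1.20 ± 0.16. Of 10 other desmosome genes 1 was called, DSC3, higher at 1.22 ± 0.12. The 10 other adherens junction genes and the 13 other polarity genes held 0 calls, with medians of -0.04 and -0.05, and 1 adherens junction gene and 3 polarity genes had an unadjusted p under 0.05.

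Genes of other cell types moved between the numbers as well. Of 8 transcription factors of the epithelial-mesenchymal transition, limma called 3 higher in replicate 2 and 0 lower. ZEB1 stood at 0.69 ± 0.11 (SE), ZEB2 at 1.01 ± 0.17 and PRRX1 at 0.71 ± 0.14, whereas SNAI1 stood at -0.68 ± 0.18 and SNAI2 at 0.12 ± 0.12 and neither passed. ZEB1 had a log2 signal of 6.58 on DMSO 1, 6.48 on TBBD 1, 7.29 on DMSO 2 and 7.16 on TBBD 2. Its numbers separated in the direction opposite to CDH1, whereas those of SNAI1 separated in the same direction as CDH1. Whether either factor acts on CDH1 in these cells was not tested. Of 20 mesenchyme markers 12 were called higher and 0 lower, with a median of 0.69, among them COL3A1 at 2.16 ± 0.13. VIM at 0.47 ± 0.12 and the cadherin gene CDH2 at -0.31 ± 0.24 did not pass. Of 11 markers of visceral endoderm and liver, which are epithelial, 8 were called higher (median 1.55), and of 8 endothelial markers 6 (median 0.81). Of 9 pluripotent cell markers 4 were called lower and 1, SOX2, higher (median -0.67). Of 10 trophoblast and amnion markers 5 were called higher. The other 5 lay lower, 2 of them at an unadjusted p under 0.05. The 6 markers of surface ectoderm held 0 calls, 4 of them lay lower, and their median was -0.32. The markers of definitive endoderm, nerve and heart or smooth muscle held 1 call each, the last of them lower. Blood markers held 0 calls, with 0 of 4 at an unadjusted p under 0.05 and a median level of 5.40, that of the olfactory receptor genes. On DMSO 1, TBBD 1, DMSO 2 and TBBD 2 the median log2 signal of the mesenchyme markers was 8.57, 8.52, 9.95 and 10.03, and that of the pluripotent cell markers went from 7.75 on DMSO 1 to 6.65 on TBBD 2. The 33 epithelial genes had medians of 7.90, 7.91, 7.41 and 7.14. In an aggregate of several cell types, fewer cells of a type and less RNA per cell cannot be told apart, and the part of these cell types in the values of the 33 genes was not tested.

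**Figure D3:**
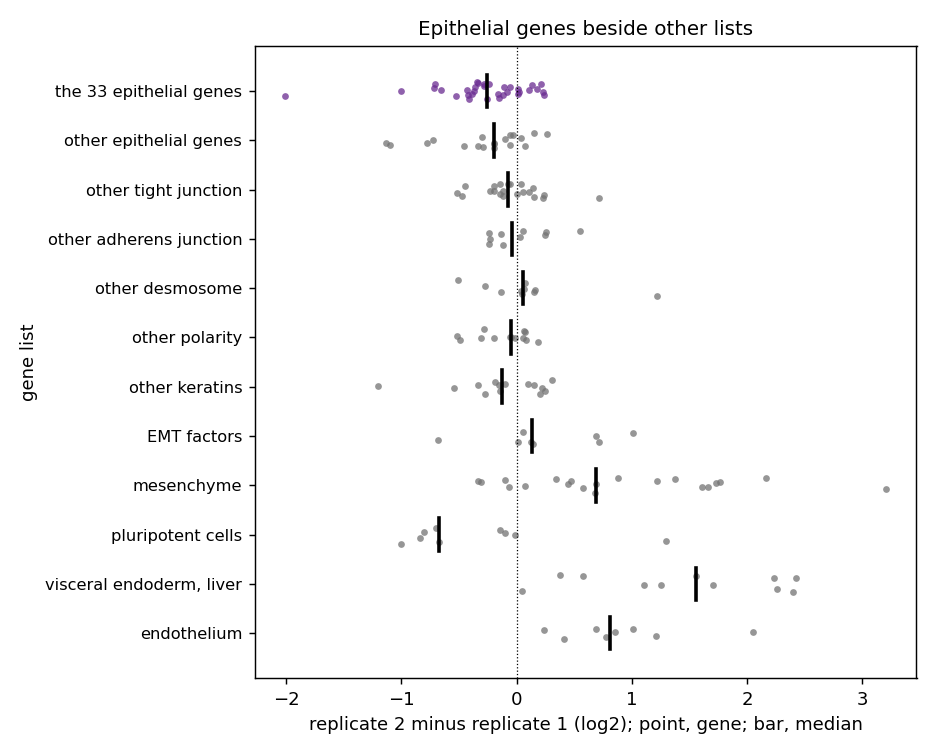
Difference between replicate 2 and replicate 1 (log2) for the 33 epithelial genes and for the genes of 11 other lists; each point is a gene, spread vertically for legibility, and each bar is the median of its list. The epithelial genes have a median of -0.25, the mesenchyme markers 0.69 and the pluripotent cell markers -0.67.

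Between the treatments the 33 genes were split evenly by sign. With TBBD 17 members lay higher and 16 lower than with DMSO, and the median log2 difference (TBBD minus DMSO) was 0.0039, against -0.0035 over all genes. That median was 0.23 without TBBD replicate 2 and -0.18 without TBBD replicate 1. By limma's moderated test with the treatment as the only term, 0 members passed the adjusted threshold, as did 0% of all genes. At an unadjusted p under 0.05 there were 0 members, beside 0.746% of all genes. The treatments did not overlap for 4 members, with TBBD higher for JUP and PKP2 and lower for CLDN3 and ST14, where the share over all genes was 20.9%. For the typical member the standard error was 0.20 and the 95% interval, which is not adjusted for the number of genes, reached 0.51 to either side. A call at the adjusted threshold needed a larger difference than that, so the 0 calls do not exclude differences of this size. An exact permutation test on 2 against 2 arrays cannot give a p below 0.333.

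The members with the largest differences in the mean over probesets were PKP2, CLDN10, CLDN3, JUP and SPINT1. With the median over probesets these stood at 0.093, -0.53, -0.093, 0.079 and -0.052 in that order, so that SPINT1 changed sign. PKP2 stood at 0.28 ± 0.19 (SE), with a 95% interval from -0.21 to 0.77, and the difference was 0.54 in replicate 1 and 0.0094 in replicate 2. CLDN10 stood at -0.26 ± 0.92, with an interval from -2.64 to 2.12. CLDN3, a claudin that seals the strand, had a log2 signal of 7.25 on DMSO 1, 7.02 on TBBD 1, 7.25 on DMSO 2 and 7.06 on TBBD 2. Its TBBD arrays lay below the DMSO arrays by nearly the same step in both numbers, a difference of -0.21 ± 0.11 with an interval from -0.50 to 0.07, and all 3 of its probesets were lower. JUP, at 0.16 ± 0.12, had a TBBD signal that was higher by 0.16 in each number. SPINT1, an inhibitor of matriptase, had a signal of 7.38 on DMSO 1, 7.55 on TBBD 1, 7.07 on DMSO 2 and 7.19 on TBBD 2, and in this mean over probesets TBBD lay above DMSO within each number although the groups overlapped. Of its 15 probesets 9 were higher with TBBD and 6 lower, with 1 at 1.42.

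Within the numbers, most members had a TBBD signal above the control in replicate 1 and below it in replicate 2. In replicate 1 TBBD was above DMSO for 24 members, with a median of 0.16, and in replicate 2 it was below DMSO for 26, with a median of -0.15. Over all 18640 genes the medians were -0.021 and 0.012. Of these genes, 8423 were above DMSO in replicate 1 and 8699 below it in replicate 2. The sign was positive in replicate 1 and negative in replicate 2 for 20 members, where 23.6% of all genes had that pattern. The reverse held for 3 members and for 5902 of the 18640 genes, so opposite signs were common over all genes too. The count goes by sign alone and includes differences near 0, such as -0.0039 for KRT8 in replicate 2. TBBD lay above DMSO in both numbers for 4 members and below it in both for 6, where 21.5% and 23% of all genes did. Each of these differences rests on 1 array a side, so none has a replicate check, and whether the response differs between the numbers was not tested.

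**Figure D4:**
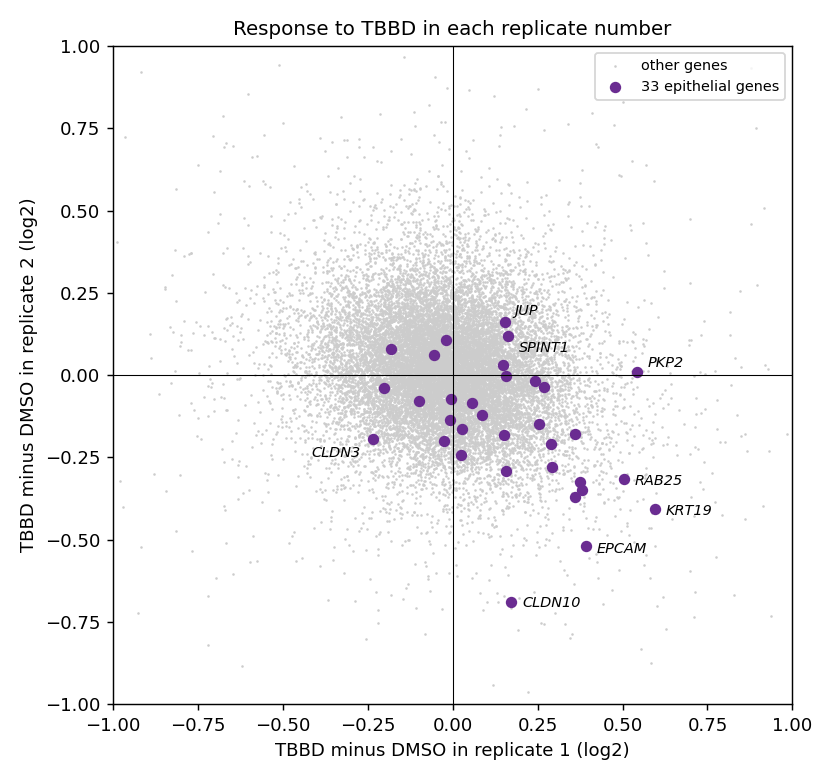
TBBD minus DMSO (log2) in replicate 1 against the same difference in replicate 2, with the 33 epithelial genes in purple and all other genes in grey; the axes end at 1.0 and leave out 37 genes. Of the purple points, 20 lie to the right of 0 and below 0, with KRT19, EPCAM, RAB25 and CLDN10 farthest out among those labelled there.

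EPCAM had a TBBD difference of 0.39 in replicate 1 and of -0.52 in replicate 2, and 12 of its 13 probesets were positive in the first and 12 negative in the second. KRT19 stood at 0.60 and -0.41, with all 7 probesets positive in replicate 1 and all 7 negative in replicate 2. RAB25 stood at 0.50 and -0.32, GRHL2 at 0.38 and -0.32, PATJ at 0.38 and -0.35, and SPINT2 at 0.36 and -0.37. CDH1 stood at 0.15 and -0.18 and CLDN10 at 0.17 and -0.69. These genes span adhesion, polarity, keratin and regulator roles. By sign all 3 members of the regulator group had this pattern, but for 2 of them 1 side was near 0. ESRP1 stood at 0.025 in replicate 1, with 9 of 19 probesets higher, and ESRP2 at -0.019 in replicate 2, with 8 of 16 lower. Those with the same sign in both numbers were JUP, PKP2, SPINT1 and TJP1, which were positive, and CLDN3, CLDN7, OCLN, MARVELD2, ST14 and CRB3, which were negative.

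TBBD 1 was the highest array for 21 of the 33 members and TBBD 2 the lowest for 18 and the highest for 0. Over all genes TBBD 1 was highest for 22.5%, and TBBD 2 was lowest for 25.3% and highest for 28.9%. The differences between numbers and the differences within numbers share these arrays, so they are not separate observations. Of the 19 other epithelial genes, 14 also had a positive difference in replicate 1 and a negative one in replicate 2, with medians of 0.15 and -0.11. So had 5 of 6 markers of surface ectoderm (medians 0.28 and -0.23) and 5 of 10 trophoblast and amnion markers (medians 0.31 and -0.17). The other junction and keratin lists shared it less, beside 23.6% of all genes. It was seen in 4 of 21 other tight junction genes (medians -0.069 and 0.055) and 4 of 14 other keratins (medians 0.069 and 0.036). Of the other desmosome, adherens junction and polarity genes, 3 of 10, 5 of 10 and 6 of 13 had it. The mesenchyme markers had medians of 0.05 and 0.14, and 2 of 20 had this pattern. The factors of the epithelial-mesenchymal transition had medians of -0.11 and 0.10, and 1 of 8 had it. With TBBD against DMSO over both numbers 0 genes of any of these lists passed limma's adjusted threshold. Of the 8 transition factors 1 had an unadjusted p under 0.05, TWIST1, at 0.30 ± 0.11 (SE), with an interval from 0.0075 to 0.58 and a higher TBBD signal in both numbers, by 0.31 and 0.28 (limma adjusted p = 1). FOXC2 stood at 0.23 ± 0.17 and PRRX1 at 0.15 ± 0.35. ZEB1 stood at -0.11 ± 0.33, ZEB2 at 0.02 ± 0.49, SNAI1 at -0.28 ± 0.36 and CDH2 at -0.29 ± 0.31.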

How the data were processed

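The 4 samples were each hybridised to an Affymetrix HuGene 1.0 ST array. Per the labels' protocols, RNA was extracted with Trizol and labelled with biotin, and per the submitters' processing notes the authors used RMA, in a version not given in the sources used here. Deposited values are signals on a log2 scale, per probeset, a scale read from the values. They carry no detection calls, and the number of arrays limits the precision.

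Of 247312 probesets, 277 with a placeholder value were left out. The 218927 that carry 1 gene symbol in the platform annotation were averaged per gene after older symbols were updated through RefSeq (GRCh38.p14). The mean weighs probesets of unlike brightness equally.

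Both comparisons used limma 3.58.1 in R 4.3.3 over all 18640 genes, two-sided, with Benjamini-Hochberg adjustment and a threshold of 0.05. Treatment was tested alone, and the replicate number was tested with treatment as a second term, which leaves 1 residual degree of freedom. The spread pooled over all genes entered that test with 6.0 degrees of freedom. Its standard errors therefore rest mostly on the pooled spread and less on the arrays of the single gene. In the treatment test the pooled spread had 3.0 degrees of freedom beside 2 residual ones. The fits were run on simulated arrays in which only the difference under test was added, and the pass rule concerned only the bias of the estimates. This does not show how often the tests call wrongly, or miss, in data with a difference between numbers. Values for each array are given for members past the threshold, the 5 with the largest difference in each comparison, and CDH1, EPCAM, KRT8, KRT18, KRT19, OCLN, CLDN6 and TJP1. Up to 3 genes of each other list, by smallest p, together with SNAI1, SNAI2, ZEB1, ZEB2, CDH2 and VIM, could be named, and DSP was added after its values were seen. The grouping by role was made after values were seen. The members and lists were chosen with earlier results of these data known, and no list was tested as a list. Alternatives covered normalization, dim genes, probeset summary, variance prior, terms, thresholds and each array left out. Plots used Python 3.11.15 with matplotlib 3.10.9.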

Additional observations from a re-analysis of the deposited data

How the results depend on the processing

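No member passed limma's adjusted threshold for TBBD against DMSO under any alternative run, and CLDN10 passed it for the replicate numbers under each one that gave a test. The 4 members called between the numbers became 2 with quantile normalization again (CLDN10 and OCLN), 1 on single probesets (CLDN10) and 1 to 5 with an array left out, where the replicate number was the only term, a choice made after seeing the data. With the median over probesets there were again 4, but EPCAM, CLDN6, CLDN10 and OCLN. Calls over all 18640 genes numbered 613 with quantile normalization again and 617 with the median over probesets. Over all genes the 653 calls became 1001 with the replicate number as the only term, 1310 at an adjusted p under 0.1, 148 among the 218927 single probesets, and 368 to 685 with an array left out. The median of the members between the numbers ran from -0.36 to -0.11 with an array left out, and their median for TBBD from -0.18, without TBBD replicate 1, to 0.23, without TBBD replicate 2. It was -0.035 with the median over probesets. The array left alone in its group was assumed to vary like the others. Members with the same sign in both numbers were 10, and 6 with quantile normalization again, while those positive in replicate 1 and negative in replicate 2 went from 20 to 24. With the replicate number as a block (the pairing) the treatment test called 0 members. Across genes, the DMSO and TBBD arrays deviated together by number (correlation 0.566), but 2 shared numbers do not show a pairing.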
